A study of Mus musculus with 16 samples.

Results

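Cenpf, Nuf2, Nek2, Kif14, Aspm, Aurkb, Hmmr, Spag5, Top2a and Pttg1 are mouse genes that act at the spindle, the kinetochore and the chromosomes during cell division. The genes were matched by symbol, and all 10 were found among the 5921 genes held and passed the filter that left 2620 genes for testing. They were measured by RNA-seq in 16 libraries made from embryonic mouse ventricles at E11.5. The study targeted the transcription factor gene Atf4 with Xmlc2-Cre, a Cre transgene driven by a myosin light chain promoter and active in cardiomyocytes. The other cells of the ventricle are meant to keep the allele. Atf4 is not among the genes held, so its loss, and the cells that lost it, could not be checked. Exons 2 and 3 of Atf4 were flanked by loxP sites in the exon 2-3 line (labelled Batch1), and 4 conditional knockout (cKO) libraries were set beside 4 controls. The exon 2 line (Batch2) had exon 2 alone flanked, again with 4 cKO libraries and 4 controls. The genotype label reads C57BL/6 WT on every sample, cKO included, and nothing says whether the controls carried Cre or a floxed Atf4. Line and batch cannot be told apart. Each cKO was therefore compared with the controls of its own line, and the difference between the knockout effects of the lines was tested directly.

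When a cell divides, kinetochores assemble on the centromeres and attach each chromosome to the microtubules of the spindle, whose poles are organised by the centrosomes. Attachment is checked before securin is destroyed and separase lets the sister chromatids part. Many of these genes are transcribed mainly late in the cell cycle, from G2 into mitosis, so that their mRNA in a tissue is widely used as a sign of how many cells are dividing. Cardiomyocytes of the embryonic ventricle still divide, unlike most of those of the adult heart. In bulk tissue, fewer dividing cells and less RNA per dividing cell cannot be told apart.

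The values are the authors' TPM, which scale each library to a fixed total and allow for transcript length. The rows held cover chromosomes 1 and 10 and part of 11, and sum to between 15.2% and 17.1% of a library. The reads behind each value are unknown. Cardiomyocyte markers were abundant, with Tnnt2 between 2388 and 5167 TPM. The neuronal markers held, Map2 and Syt1, summed to at most 2.11 TPM in any library, although an extraction text in the labels names cortical neurons. Erythroid markers varied most, and their summed level ran from 1512 to 11293 TPM in the exon 2-3 cKO libraries. The design states that replicates are biological. No pair of libraries in a group shared more than 0.0410% of their values above 0.

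On GRCm38, 5 members lie on chromosome 1: Nuf2 at chr1:169497934-169531464 and Cenpf at chr1:189640606-189688107 on the minus strand, and Kif14 at chr1:136466301-136555938, Aspm at chr1:139454188-139494088 and Nek2 at chr1:191821449-191833049 on the plus strand. The other 5 lie on chromosome 11. Hmmr at chr11:40701388-40733464, Pttg1 at chr11:43420244-43427463 and Top2a at chr11:98992947-99024199 are on the minus strand, and Aurkb at chr11:69045624-69051664 and Spag5 at chr11:78301470-78322457 are on the plus strand. Whether reads were counted by strand is not stated. Nek2, Kif14 and Top2a overlap predicted genes on their own strand and Spag5 overlaps one on the other strand, so a share of their reads could have been split. The overlapping genes had mean levels below 1 TPM, the highest being 0.852 TPM for Gm29485, which overlaps Kif14.

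Genes of G2 and mitosis often carry a cell cycle genes homology region (CHR, the letters TTTGAA or TTCGAA) close to the transcription start and CCAAT boxes upstream. RefSeq promoters on GRCm38.p6 (250 bases before to 50 bases after the start) were available for 9 of the 10 members, all but Aurkb. The start is that of the promoter entry and can differ from the end of the gene's coordinates given above. For Aspm, whose gene coordinates begin at chr1:139454188, position -6 of the promoter is at chr1:139454767. Searched on both strands, a CHR match was present in 6 of the 9 against 19.2% of all 32851 promoters of this length. A CCAAT match was present in 7 of the 9 against 37.4%. Both kinds were present in 6 of the 9, which are Cenpf, Kif14, Aspm, Hmmr, Spag5 and Top2a, against 7.52% of all promoters. In 5 of the 9 a CHR match fell within 30 bases of the start, against 3.13%. Those 5 matches are printed below with their neighbouring bases, on the gene's strand, because they show the word nearest the start in each. Capitals mark TTTGAA or its reverse complement TTCAAA. The regions are chr1:189688067-189688096 (minus) for Cenpf, chr1:139454767-139454796 (plus) for Aspm, chr11:40733412-40733441 (minus) for Hmmr, chr11:78301582-78301611 (plus) for Spag5 and chr11:99024195-99024224 (minus) for Top2a.
Cenpf: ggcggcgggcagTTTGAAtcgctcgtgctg
Aspm: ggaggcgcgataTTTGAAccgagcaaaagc
Hmmr: agttgaggtaaaTTTGAAttcaggcgagct
Spag5: gtgcgtattgggTTCAAAtagaggcggcgg
Top2a: gctagataaaggTTCAAAtgaaactaggga
The word stands 5′ to 3′ on the gene's strand in Cenpf, Aspm and Hmmr and on the opposite strand in Spag5 and Top2a.

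The upstream parts of the Hmmr and Top2a promoters, at chr11:40733465-40733687 and chr11:99024200-99024439 on the minus strand, show how the boxes are arranged. Capitals mark CCAAT, its reverse complement ATTGG, and the CHR words on either strand.
Hmmr upstream: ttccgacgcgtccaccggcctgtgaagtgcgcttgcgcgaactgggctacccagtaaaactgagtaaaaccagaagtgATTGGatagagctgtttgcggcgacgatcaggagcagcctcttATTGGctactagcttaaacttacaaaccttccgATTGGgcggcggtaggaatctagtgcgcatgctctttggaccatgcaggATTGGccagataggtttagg
Top2a upstream: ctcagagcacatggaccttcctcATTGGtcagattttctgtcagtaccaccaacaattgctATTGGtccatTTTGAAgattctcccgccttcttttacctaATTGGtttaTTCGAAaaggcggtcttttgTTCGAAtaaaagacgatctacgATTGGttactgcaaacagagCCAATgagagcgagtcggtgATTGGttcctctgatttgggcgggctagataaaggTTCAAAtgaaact
The boxes of Hmmr and most of those of Top2a read ATTGG on the gene's strand. The Nek2 promoter held a CCAAT match and no CHR match, and those of Nuf2 and Pttg1 held neither. A match is a description of the letters and not evidence of a bound factor. The absence of a match says only that these letters are not in this window.

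In the exon 2-3 controls, Top2a had the highest level of the 10 and Kif14 the lowest, with the order Top2a, Pttg1, Aurkb, Hmmr, Nuf2, Spag5, Cenpf, Nek2, Aspm and Kif14 by mean TPM. The ranges of Aurkb and Hmmr, of Hmmr and Nuf2, of Nuf2 and Spag5, and of Cenpf and Nek2 overlapped. Within single libraries, Hmmr was above Nuf2 and Nuf2 above Spag5 in all 4. The order of Aurkb and Hmmr, and that of Cenpf and Nek2, changed between libraries, so these pairs are not separated in level.

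**Figure D1:**
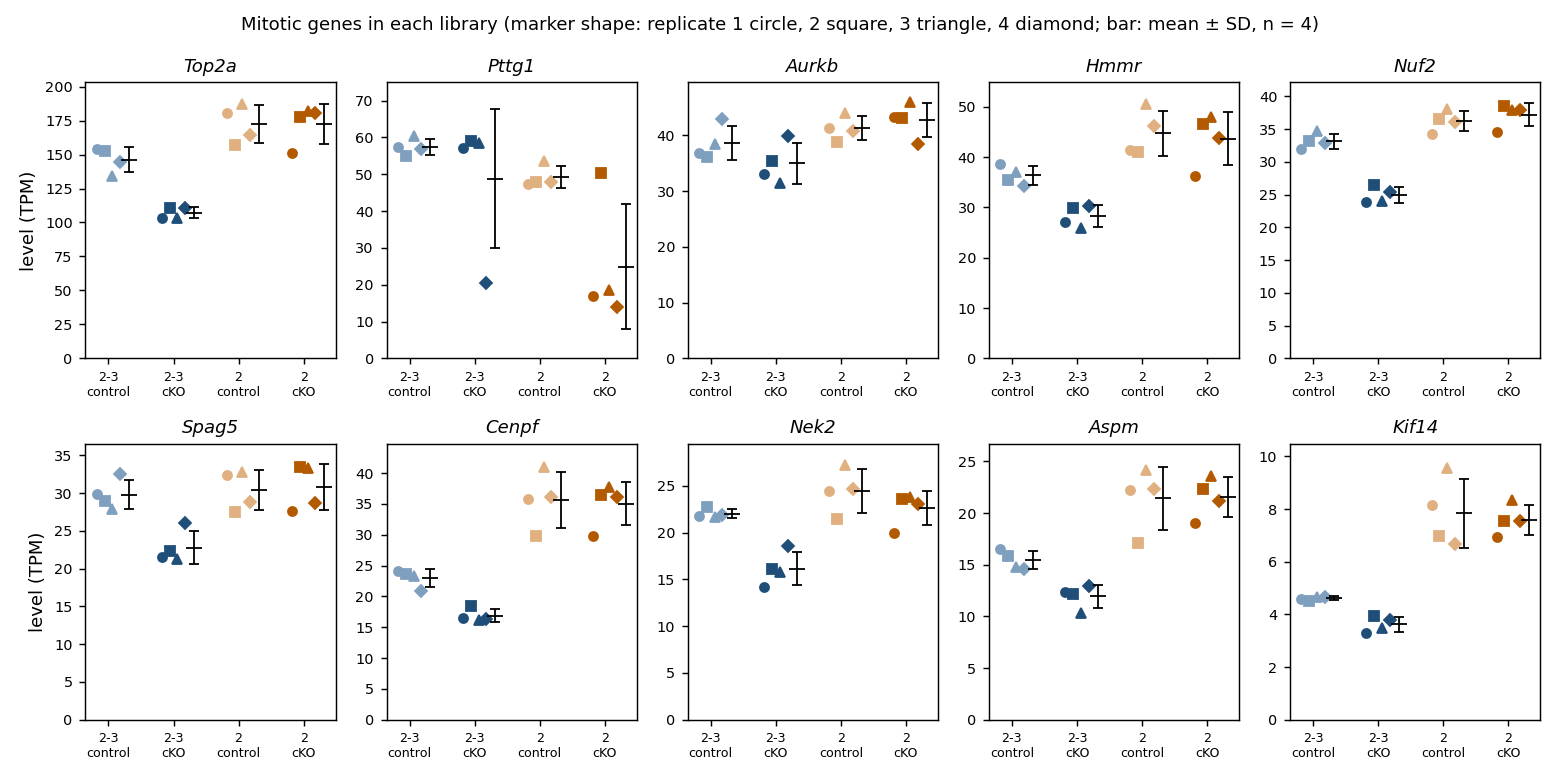
TPM of the 10 genes (vertical axis, from 0) in each of the 16 libraries, by group on the horizontal axis (2-3, the exon 2-3 line; 2, the exon 2 line), with the mean and SD of the 4 libraries beside each group. For Cenpf, Nuf2, Nek2, Kif14, Aspm, Hmmr, Spag5 and Top2a every exon 2-3 cKO library lies below its 4 controls, and no gene shows such a gap in the exon 2 line.

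Of the 10 members, 7 fell in the exon 2-3 cKO. They passed the threshold as lower (limma, Benjamini-Hochberg adjusted p under 0.05 over all genes tested), against 2.56% of all genes tested that fell. These were the kinetochore genes Cenpf and Nuf2, the spindle and centrosome genes Nek2, Aspm, Hmmr and Spag5, and the chromosome gene Top2a. All 10 log2 fold changes were negative and their median was -0.36, against 0.03 over all genes tested. The cKO libraries lay below all 4 controls for 8 of the 10, the 7 and Kif14, against 5.31% of all genes tested, and above them for none, against 9.24%. In all, 176 genes (6.72%) were called, of which 109 (4.16%) rose and 67 fell, and 61.9% of calls were higher in the cKO. That share was 41.4% after centring on the library median and 50.5% after quantile normalisation, and 8 members were called under both.

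At the kinetochore, Nuf2 belongs to the NDC80 complex, which holds microtubule ends. It measured 31.9, 33.2, 34.7 and 32.9 TPM in the controls and 23.9, 26.4, 24.0 and 25.4 TPM in the cKO libraries. The groups did not overlap, the mean was 24.9% lower in the cKO, and the log2 fold change was -0.40 ± 0.057 (SE, limma adjusted p = 0.00379). Cenpf encodes a large coiled-coil protein that binds the outer kinetochore late in the cycle. It measured 24.2, 23.6, 23.2 and 20.9 TPM in the controls and 16.4, 18.5, 16.1 and 16.4 TPM in the cKO. Even the highest cKO library, replicate 2, was under the lowest control, and the log2 fold change was -0.43 ± 0.070 (limma adjusted p = 0.00816).

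Among the genes of the spindle and its poles, Nek2 encodes a centrosome kinase that helps the centrosomes separate. It measured 21.8, 22.7, 21.7 and 21.8 TPM in the controls and 14.2, 16.1, 15.8 and 18.6 TPM in the cKO. The controls were tightly grouped and the cKO libraries spread more widely below them, with a mean 26.6% lower (log2 fold change -0.43 ± 0.078, limma adjusted p = 0.0134). Spag5, also called astrin, binds spindle microtubules and kinetochores. It ranged from 28.0 to 32.5 TPM in the controls and from 21.2 to 26.0 TPM in the cKO (log2 fold change -0.38, limma adjusted p = 0.0230). Hmmr, a microtubule-binding protein of the spindle, ranged from 34.3 to 38.7 TPM against 25.9 to 30.3 TPM (log2 fold change -0.35, limma adjusted p = 0.0178). Aspm works at the spindle poles. It ranged from 14.6 to 16.5 TPM against 10.3 to 12.9 TPM (log2 fold change -0.35, limma adjusted p = 0.0355). The calls of Aspm and Spag5 were each lost in 5 of the 8 fits that left out 1 library and that of Hmmr in 3 of 8, with limma adjusted p-values up to 0.105, 0.0717 and 0.0578. Without the filter on low values Aspm and Spag5 also missed the threshold (limma adjusted p = 0.0743 and 0.0646). Kif14 encodes a kinesin of late cytokinesis. It ranged from 4.51 to 4.68 TPM in the controls and from 3.31 to 3.93 TPM in the cKO, without overlap, but missed the threshold (log2 fold change -0.28, limma adjusted p = 0.0753). It passed with quantile normalisation, median centring or no intensity trend (limma adjusted p = 0.0236, 0.0291 and 0.0320).

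On the chromosome side, Top2a encodes the topoisomerase that untangles sister chromatids. It measured 154, 152, 134 and 144 TPM in the controls and 104, 111, 103 and 111 TPM in the cKO. The groups were separated by a wide gap, and the log2 fold change was -0.44 ± 0.057 (limma adjusted p = 0.00213), the smallest adjusted p of the 10. Aurkb encodes the kinase of the chromosomal passenger complex, which corrects faulty attachments. Its controls measured 36.9, 36.1, 38.5 and 42.9 TPM and its cKO libraries 33.1, 35.4, 31.4 and 39.9 TPM. These groups overlapped and the difference did not pass the threshold (log2 fold change -0.14, 95% interval -0.33 to 0.045, limma adjusted p = 0.368). Pttg1, which encodes securin, did not pass either (-0.35, limma adjusted p = 0.548) and is described with its single libraries further on. Cenpf, Nuf2, Nek2 and Top2a kept their calls in all 8 fits that left out 1 library.

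Leaving out 1 library in turn left between 4 and 7 members called. The count was 4 without control replicate 1, without cKO replicate 1 or without cKO replicate 3. It was 7 without cKO replicate 4, the library with the highest summed erythroid level (11293 TPM), and 7 with the level of Hba-x, an embryonic globin gene, as a covariate.

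None of the 10 passed the threshold in the exon 2 line, against 0.0763% of all genes tested called in either direction (limma, 2 genes, both higher), and 84 genes, Pttg1 among them, had an unadjusted limma p under 0.05. Of the 10 log2 fold changes 5 were positive and 5 negative, with a median of -0.01. No member's cKO libraries lay wholly below or wholly above the controls, against 1.15% and 0.687% of all genes tested. Top2a measured 181, 157, 187 and 165 TPM in the controls and 151, 177, 182 and 181 TPM in the cKO. Nuf2 measured 34.3, 36.6, 38.1 and 36.1 TPM in the controls and 34.6, 38.5, 37.9 and 37.9 TPM in the cKO. For both genes the groups overlapped, although Top2a was below every control in cKO replicate 1 and Nuf2 above every control in cKO replicate 2. The 95% intervals of the log2 fold changes were -0.17 to 0.17 for Top2a, -0.093 to 0.17 for Nuf2, -0.29 to 0.078 for Nek2 and -0.24 to 0.20 for Cenpf. These 4 intervals include 0, as do those of Kif14 (-0.28 to 0.21), Aspm (-0.22 to 0.25), Hmmr (-0.25 to 0.18), Spag5 (-0.17 to 0.20) and Aurkb (-0.099 to 0.19). All the intervals named here lie above the fold change measured for the same gene in the exon 2-3 line, that of Kif14 barely (-0.279 against -0.282). That fold change has its own error, so the lines are compared only by the interaction given below. The directions of Cenpf, Kif14, Aspm, Hmmr, Spag5 and Top2a turned when single libraries were left out.

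**Figure D2:**
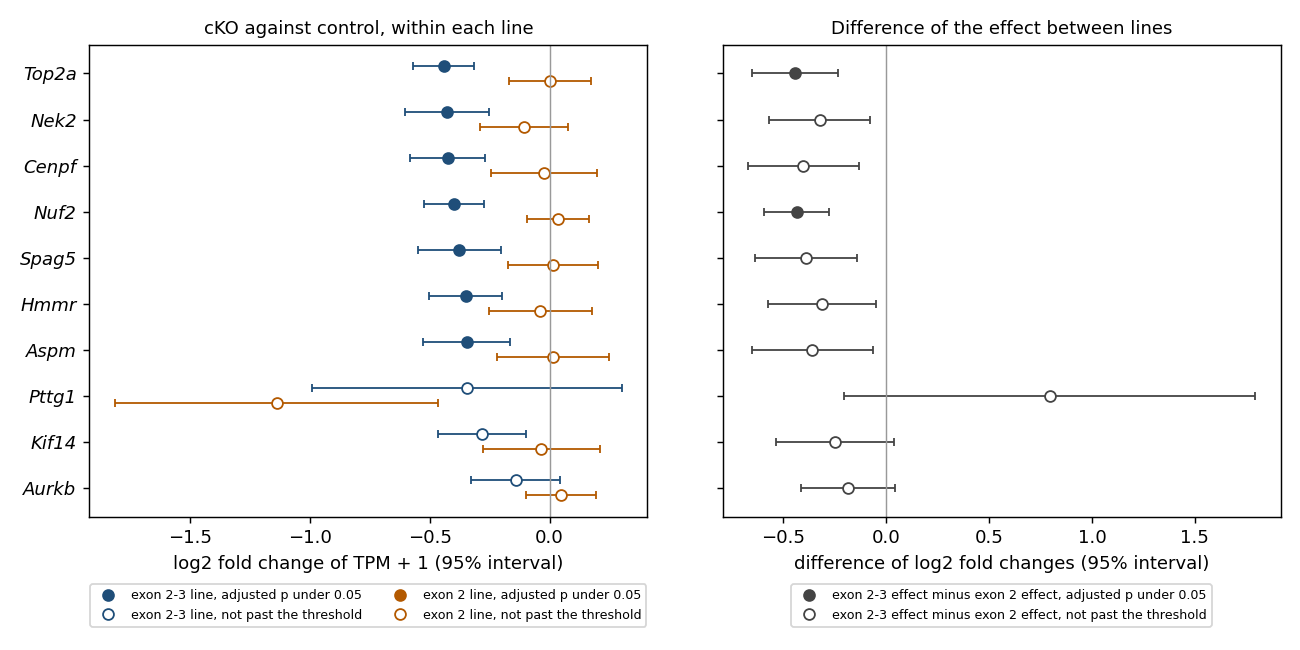
Log2 fold changes of TPM + 1 with 95% intervals (horizontal axis) for the 10 genes. The left panel gives cKO against control in each line and the right panel the difference of these effects between lines; filled points have an adjusted p under 0.05, as 7 genes do in the exon 2-3 line, none in the exon 2 line, and Nuf2 and Top2a for the difference.

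The difference between the lines' knockout effects, tested as an interaction over the 16 libraries, passed for 2 members, Nuf2 and Top2a, against 0.763% of all genes tested that were called lower, 1.6% called higher and 2.37% called in either direction. The interaction was -0.44 ± 0.075 (SE) for Nuf2 (limma adjusted p = 0.00370) and -0.45 ± 0.099 for Top2a (limma adjusted p = 0.0236). Nuf2 kept its call in all 16 fits that left out 1 library. Top2a lost it in 7 of 16, with limma adjusted p-values up to 0.0581, and without the filter on low values (0.0615). The interaction was negative for 9 of the 10 genes, with a median of -0.34 against 0.04 over all genes tested. It was -0.40 for Cenpf, -0.39 for Spag5, -0.36 for Aspm, -0.32 for Nek2 and -0.31 for Hmmr, and none of these passed (limma adjusted p = 0.113, 0.103, 0.205, 0.172 and 0.220). For those 5 genes, a fall past the threshold in the exon 2-3 line and none in the exon 2 line is therefore not shown to differ. After centring on the library median 5 members passed.

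The control groups themselves differed in these genes. Of the 10, 5 were lower in the exon 2-3 controls past the threshold, against 38.1% of all genes tested that were lower and 52.6% called in either direction. They were Kif14 (log2 difference -0.65, limma adjusted p = 4.34e-05), Cenpf (-0.61, 4.51e-05), Aspm (-0.44, 0.00142), Hmmr (-0.29, 0.0114) and Top2a (-0.23, 0.0101). The control libraries of the lines did not overlap for those 5 members, against 32.6% of all genes tested that were wholly lower, and for Pttg1, which was wholly higher, against 12.9%. The median over the members was -0.19 and over all genes tested -0.14, so the members' share is to be read against a shift of the whole table. With quantile normalisation 4 members were called lower. After median centring 4 were called, of which 1, Spag5, was higher in the exon 2-3 controls. There the differences of Nuf2, Nek2 and Aurkb also turned positive without passing (limma adjusted p = 0.464, 0.651 and 0.291), and Hmmr and Top2a missed the threshold (0.288 and 0.407). With the Hba-x level as a covariate 7 were called lower, Nuf2 and Nek2 among them (limma adjusted p = 0.0333 and 0.0363). For Cenpf, Aspm, Hmmr and Top2a, called in both comparisons, the line with the lower control level was also the line in which the cKO was lower still. Kif14 had the same directions, but its fall in the cKO did not pass the threshold. Aspm, for example, ranged from 14.6 to 16.5 TPM in the exon 2-3 controls and from 17.1 to 24.2 TPM in the exon 2 controls. Other mitotic genes described below went both ways. Sgo2a was lower in the exon 2-3 controls (-1.37, limma adjusted p = 1.00e-09) and lower still in their cKO. Cenpw (0.51, 0.000404), Cdk1 (0.37, 1.50e-05) and Pimreg (0.19, 0.0265) were higher in those controls, yet fell past the threshold in the cKO. A link between control level and knockout effect was not tested.

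In some groups the same library was highest or lowest for most members. Exon 2 control replicate 3 had the highest value of its group for 10 of the 10 members and replicate 2 the lowest for 7. Among the exon 2 cKO libraries, replicate 1 was lowest for 8 members and replicate 3 highest for 7. Among the exon 2-3 cKO libraries, replicate 3 was lowest for 6 and replicate 4 highest for 6. No library stood out in this way among the exon 2-3 controls. Replicates 1 to 4 there were lowest for 1, 3, 3 and 3 members and highest for 4, 1, 2 and 3. The members share library and scaling, and the same counts were not taken over all genes tested, so these are a description only. Centred on the mean of its line and averaged over the members, log2(TPM + 1) ran from 0.17 to 0.20 in the exon 2-3 controls and from -0.22 to -0.092 in the exon 2-3 cKO. The exon 2 controls measured 0.069, -0.073, 0.21 and 0.039, and the exon 2 cKO libraries -0.23, 0.10, 0.0073 and -0.13. These averages include the low Pttg1 values of exon 2 cKO replicates 1, 3 and 4.

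Across the 16 libraries, each centred on its line, Cenpf followed the mean of the other members most closely (Pearson r = 0.888), then Hmmr (0.869), Nek2 (0.861) and Top2a (0.850). Spag5 and Kif14 each reached 0.801, Nuf2 0.790 and Aspm 0.789. Aurkb (0.426) and Pttg1 (0.163) followed it least. The 5 genes outside the members with the highest r to the members' mean were Parpbp (r = 0.916, Spearman rho = 0.926), Sgo2a (0.897, 0.891), Sdhc (0.878, 0.818), Fig4 (0.860, 0.900) and Cdk1 (0.855, 0.859). Without the 2 libraries farthest from the median these values of r were 0.892, 0.858, 0.842, 0.809 and 0.865. Sgo2a protects centromeric cohesion and Cdk1 is the kinase that drives entry into mitosis. Parpbp binds PARP1 and restrains homologous recombination, Sdhc is a subunit of succinate dehydrogenase and Fig4 is a phosphoinositide phosphatase. The libraries fall into cKO and control groups that differ in the exon 2-3 line, so part of each r is that difference. Within the exon 2-3 line, r for these 5 genes in the same order was 0.965, 0.972, 0.887, 0.896 and 0.955. Within the exon 2 line it was 0.813, 0.734, 0.865, 0.788 and 0.688. The members' mean there includes the low Pttg1 values, and their part in these values of r was not tested.

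**Figure D3:**
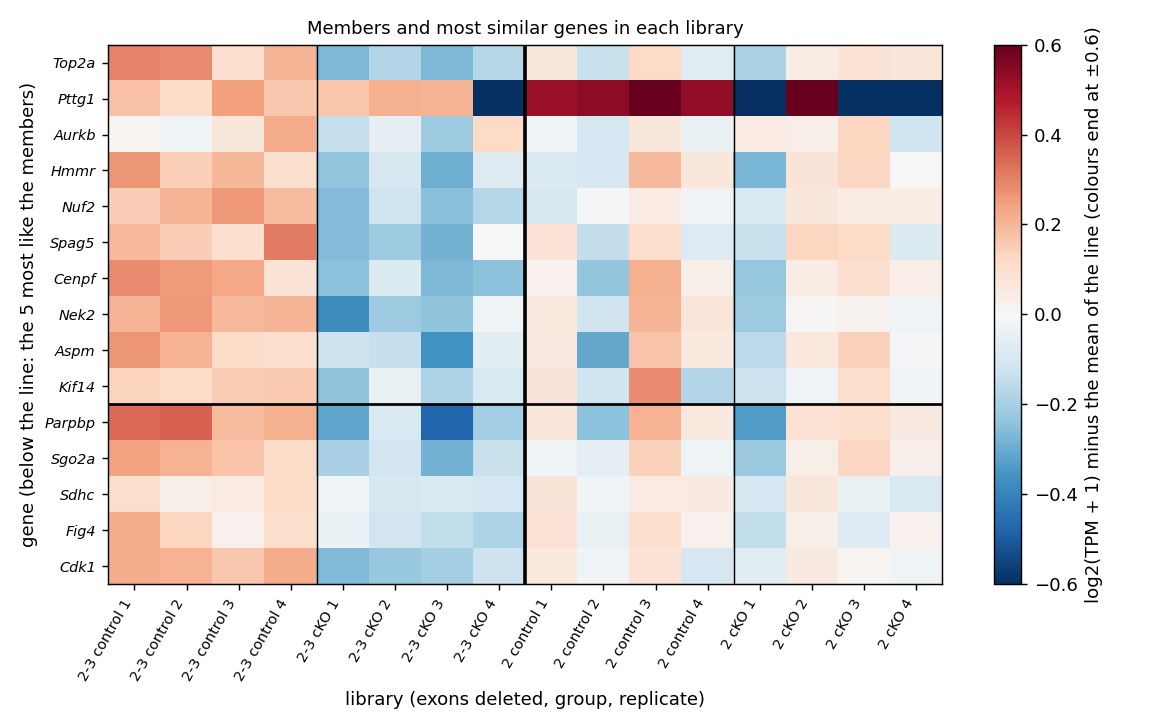
Log2(TPM + 1) minus the mean of the line (colour scale, ending at ±0.6) for the 10 members and, below the horizontal line, the 5 genes most like their mean, in each of the 16 libraries. The exon 2-3 controls are above 0 for most members and their cKO libraries below it, whereas Pttg1 has its own pattern, very low in exon 2-3 cKO replicate 4 and in exon 2 cKO replicates 1, 3 and 4.

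Pttg1 stood apart from the other members. Securin, its product, holds separase inactive until anaphase. It measured 57.5, 54.9, 60.3 and 56.8 TPM in the exon 2-3 controls and 57.1, 59.1, 58.5 and 20.4 TPM in the exon 2-3 cKO. In that line 3 cKO libraries lay within the range of the controls and replicate 4 far below them, and without replicate 4 the log2 fold change was 0.02. It measured 47.3, 47.9, 53.6 and 47.9 TPM in the exon 2 controls and 16.9, 50.2, 18.6 and 13.9 TPM in the exon 2 cKO. Here replicate 2 lay among the controls and the other 3 far below. The log2 fold change was -1.14 ± 0.31 (SE, 95% interval -1.82 to -0.46) and did not pass the threshold (limma adjusted p = 0.703). Without cKO replicate 2 it was -1.53 and passed (limma adjusted p = 7.22e-05). The interaction did not pass (0.79, limma adjusted p = 0.479).

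The 4 low Pttg1 values were 28.3% to 37.7% of the mean of their own controls, and the other 12 libraries ran from 47.3 to 60.3 TPM. No cKO library lay between 20.4 and 50.2 TPM. The 7 tested genes whose midpoints lie within 1000 kb of that of Pttg1, looked at after these values were seen, measured between 75.7% and 249% of their own controls' mean in the 8 cKO libraries. The nearest, Slu7, a splicing factor gene 17.0 kb away, measured between 90.3% and 103%. The highest was C1qtnf2, which measured 188%, 207%, 138% and 249% in exon 2-3 cKO replicates 1 to 4. C1qtnf2 and Gabrb2 are weakly expressed, with means of 0.742 and 0.848 TPM in the exon 2-3 controls, so their percentages are uncertain. The low share of the control mean was thus seen in Pttg1 and in none of these neighbours.

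**Figure D4:**
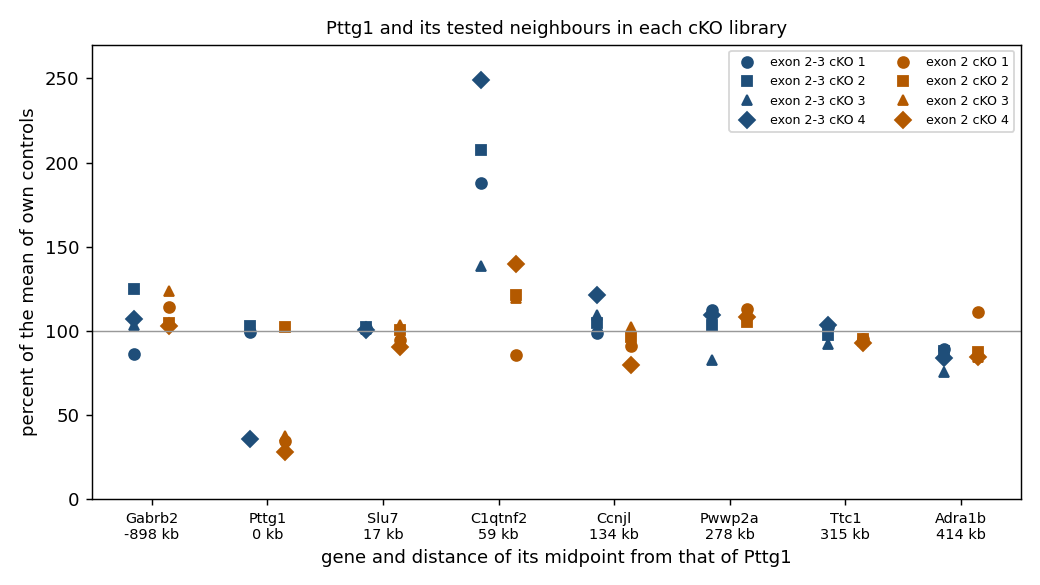
Level of Pttg1 and of its 7 tested neighbours in each of the 8 cKO libraries, as a percent of the mean of the same line's controls (vertical axis), with genes ordered by the distance of their midpoint from that of Pttg1 on the horizontal axis. Only Pttg1 has libraries under 75.7%, and these 4 lie between 28.3% and 37.7%.

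Other genes of mitosis were taken from lists of known members, few of which lie in the rows held. Of 39 other centromere and kinetochore genes 11 were tested, and 2 fell in the exon 2-3 line, against 2.56% of all genes tested. These were Cenpw, a histone-fold protein of the inner kinetochore (log2 fold change -0.43, limma adjusted p = 0.0197), and Spdl1, which recruits dynein (-0.34, 0.0178). Zwint, a binding partner of the outer kinetochore scaffold, measured -0.16 (0.0540). All 11 were negative, with a median of -0.16. Of 49 other mitotic kinase, checkpoint and anaphase-promoting complex genes 7 were tested and 3 fell, against the same 2.56%. Their median was -0.10. Those 3 were Cdk1 (-0.41, 0.00143), Fbxo5, an inhibitor of the anaphase-promoting complex (-0.36, 0.00909), and Sgo2a (-0.36, 0.0232). The calls of Cenpw and Spdl1 were each lost in 3 and that of Sgo2a in 4 of the 8 fits that left out 1 library, and Cdk1 and Fbxo5 kept theirs. Cenpw also missed the threshold without the filter (limma adjusted p = 0.0583). Zwint passed as lower without the filter (0.0432), with quantile normalisation (0.0110), median centring (0.0111) or rescaling without hemoglobin genes (0.0103), in 1 fit over all libraries (0.0292) and without control replicate 3 (0.0252).

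Of 48 other motor, spindle and cytokinesis genes 9 were tested and none was called, against 6.72% of all genes tested. Their median was 0.03. Among them Gas2l3, a cytoskeletal linker of cytokinesis, measured -0.25 (limma adjusted p = 0.165), the clathrin heavy chain gene Cltc 0.12 (0.193) and the microtubule stabiliser Clasp1 -0.12 (0.219). With median centring Gas2l3 and Clasp1 passed as lower (limma adjusted p = 0.0493 and 0.0433), and with quantile normalisation Cltc passed as higher (0.0417). Of 31 condensation, cohesion and chromatin genes 5 were tested and 1 fell, against 2.56% of all genes tested. It was Pimreg, a mitotic regulator (-0.52, 0.00173). The nuclear envelope genes Lbr and Tmpo measured -0.21 (0.105) and -0.13 (0.555). Lbr passed as lower with quantile normalisation, median centring or rescaling without hemoglobin genes (limma adjusted p = 0.0150, 0.00962 and 0.0394). Without control replicate 3 both passed, Lbr at -0.25 (0.0420) and Tmpo at -0.26 (0.0187). In the spindle list 5 of the genes tested were higher and 4 lower in the cKO, none past the threshold. Whether each listed gene is expressed mainly in dividing cells was not tested, so this spread describes the list alone.

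DNA replication genes mark the earlier S phase. Of 55 listed 9 were tested, and 4 fell past the threshold in the exon 2-3 cKO, against 2.56% of all genes tested. All 9 fold changes were negative, with a median of -0.26. They were Prim1, a primase subunit (-0.37, limma adjusted p = 0.0197), Cdc6, which loads the replicative helicase (-0.43, 0.0244), the polymerase subunit gene Pold2 (-0.23, 0.0436) and Rpa1, a single-strand binding protein (-0.27, 0.0439). Pold2 overlaps Aebp1 on the other strand (mean 27.2 TPM), so its level is uncertain. Prim1, Cdc6, Pold2 and Rpa1 lost their calls without the filter and in 4, 5, 7 and 7 of the 8 fits that left out 1 library. Pold2 and Rpa1 also lost theirs with the Hba-x covariate (limma adjusted p = 0.0530 and 0.0564) and with no intensity trend (0.0788 for both). The members had a median of -0.36 in the same fit, and the difference between these medians was not tested. None of the genes in these 5 lists was called in the exon 2 line, against 0.0763% of all genes tested, and their medians ran from -0.02 to 0.02. The interaction passed for Spdl1 (-0.36, limma adjusted p = 0.0305), Cdk1 (-0.40, 0.00437), Fbxo5 (-0.36, 0.0331) and Pimreg (-0.51, 0.00628), against 0.763% of all genes tested that were called lower. Spdl1 and Fbxo5 each lost that call in 9 of the 16 fits that left out 1 library, and Cdk1 and Pimreg in none.

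**Figure D5:**
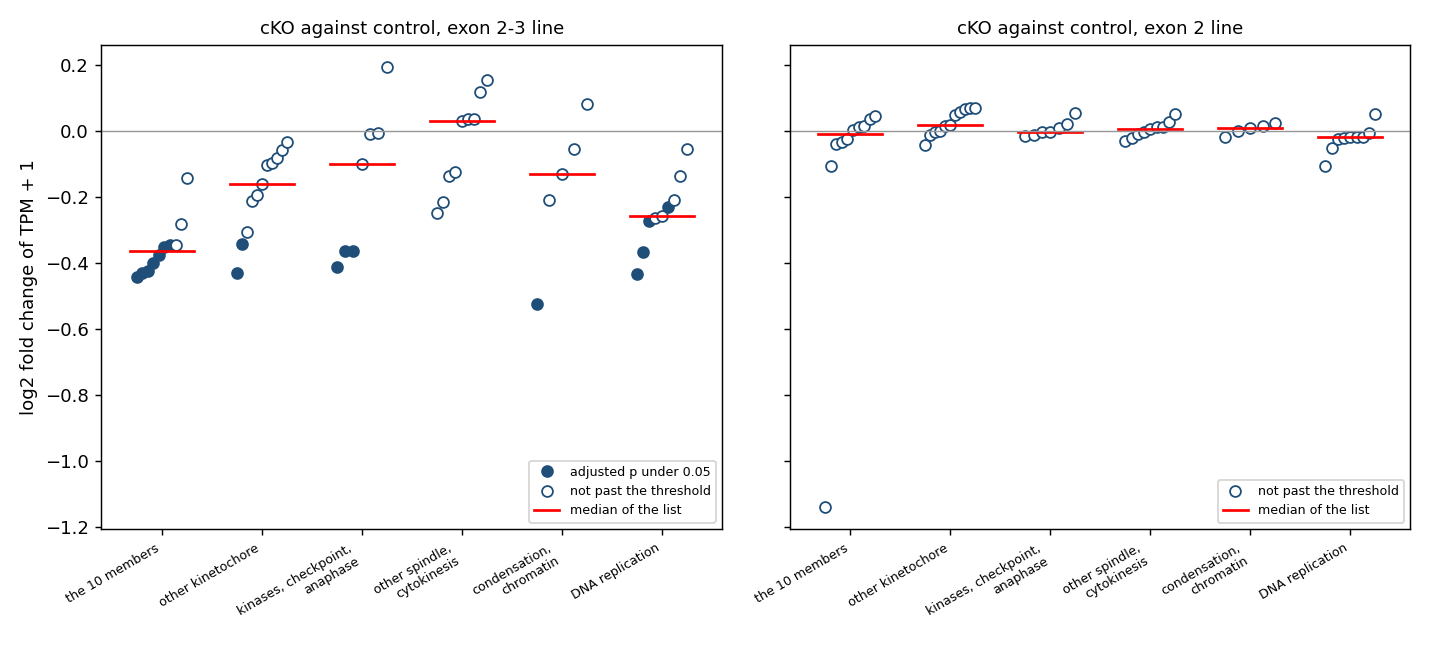
Log2 fold change of TPM + 1, cKO against control (vertical axis), for the 10 members and the tested genes of 5 other cell cycle lists (horizontal axis), with the exon 2-3 line on the left and the exon 2 line on the right. Red lines are medians and filled points have an adjusted p under 0.05. In the exon 2-3 line the medians are -0.36 for the members, -0.16 for other kinetochore genes and -0.26 for DNA replication genes. They are -0.10 for kinase, checkpoint and anaphase genes, -0.13 for condensation and chromatin genes and 0.03 for other spindle and cytokinesis genes. In the exon 2 line all medians lie near 0, with Pttg1 alone far below.

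Markers of other cell types moved in the same comparison as the mitotic genes. In the exon 2-3 cKO the epicardial markers held, Tcf21 and Krt19, both rose past the threshold, against 4.16% of all genes tested that rose. Their summed level was 168 to 191 TPM against 116 to 131 TPM in the controls (2 of the 9 listed are held, median log2 fold change 0.55). Of 4 mesenchymal markers held among the 10 listed, Col1a1, Col3a1 and Dcn rose past the threshold, against the same 4.16%. The 4 together summed to 339 to 373 TPM against 222 to 251 TPM. The 6 cardiomyocyte markers held of 21 summed to 16492 to 17479 TPM in the cKO and 16997 to 18467 TPM in the controls, which overlap, and of the 6 only Hand1 passed the threshold, as lower. Tnni1 averaged 2395 TPM in the cKO and 3058 TPM in the controls and did not pass. The 2 endothelial markers held of 16 summed to 222 to 263 TPM against 192 to 249 TPM and neither was called. The 4 erythroid markers held of 14 summed to 1512 to 11293 TPM against 2995 to 4554 TPM, and the 4 myeloid ones held of 12 to 74.7 to 87.5 TPM against 85.8 to 87.8 TPM. None of those was called, and no marker held was at 0 throughout a group. The epicardial sums of the exon 2 line were 99.5 to 121 TPM in the cKO and 108 to 125 TPM in the controls, and the mesenchymal sums 337 to 440 and 345 to 506 TPM. The part of these shifts in the level of the mitotic genes was not tested, apart from the Hba-x covariate above.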

How the data were processed

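RNA-seq values of 16 libraries (4 per group) were used as the authors deposited them, in 1 table of TPM. Group and replicate number came from the sample titles. The submitters' processing notes name FastQC, Trim Galore 0.6.7, HISAT2 2.2.1, StringTie 2.2.1, featureCounts, DESeq2 and the build GRCm38, without saying which made the TPM. Row coordinates equalled RefSeq on GRCm38.p6 for 5919 of 5921 rows. The labels' texts differ on library preparation (stranded mRNA or ribosomal RNA depletion) and sequencer. TPM keeps no depth, so no counting interval is given. The table was held in part, and Atf4 was not analysed here.

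The scale was log2(TPM + 1), on which changes of low genes are understated, for genes with a mean of at least 1 TPM. limma 3.58.1 (R 4.3.3, intensity trend) was fitted on the 8 libraries of each line, and on all 16 as group means for the interaction and the control comparison. P-values are two-sided and Benjamini-Hochberg adjusted over the 2620 genes, and 0.05 was the threshold. The members and all gene lists were chosen with earlier results of these data known, so no set test was run. All members are named, with up to 3 genes of each other list by smallest adjusted p (Rpa1 was added after its values were seen) and the 5 genes most like the members. The procedure was tested on simulated data. Alternatives were the pseudocount, the filter, 3 scalings, the Hba-x covariate, no trend, 1 fit over all libraries, the replicate block and leaving out each library. Figures were drawn with matplotlib 3.10.9.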

Additional observations from a re-analysis of the deposited data

Results flagged for a closer look

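In each of 4 groups the highest and lowest library of each member was compared with the spread of its group. The gap was large for the group's range in 7 of 40 such sets, where chance gives about 2 (1 in 20). Of these, 3 were Pttg1: exon 2-3 cKO replicate 4 (20.4 TPM) lay far below its group, exon 2 cKO replicate 2 (50.2 TPM) far above its group, and exon 2 control replicate 3 (53.6 TPM) above the other controls. The other 4 were smaller in size. Cenpf was highest in exon 2-3 cKO replicate 2 (18.5 TPM) and Nek2 in exon 2-3 control replicate 2 (22.7 TPM). Nuf2 (34.6 TPM) and Top2a (151 TPM) were lowest in exon 2 cKO replicate 1, the library that was lowest for 8 of the 10 members.

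The knockout effect differed between the lines by the interaction test for Nuf2 (-0.44, limma adjusted p = 0.00370, lower than every control in 4 of 4 exon 2-3 cKO libraries) and Top2a (-0.45, limma adjusted p = 0.0236, also 4 of 4). Line and batch cannot be told apart in this difference.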

How the results depend on the processing

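The count of genes called in the exon 2-3 line, 176, was 95 without the filter on low values, 311 (157 higher) with quantile normalisation, 343 (142 higher) with median centring and 269 (157 higher) with rescaling without hemoglobin genes. The 62 interaction calls became 133, 127 and 94 under these 3 scalings, and the 2 members called became 1 without the filter and 5 with median centring. In the exon 2 line 2 genes became 4 in 1 fit over all libraries. The 1377 control calls stayed within 1.5 times under every alternative run. Leaving out 1 library gave 70 to 190 calls (4 to 7 members) for the exon 2-3 line, 2 to 4 (0 to 1) for the exon 2 line, 36 to 84 for the interaction (1 to 2) and 1190 to 1401 for the controls (5 to 6).

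Reversed control differences were Spag5 at 0.075 (quantile), 0.15 (median centring, limma adjusted p = 0.0446) and 0.015 (rescaling), and Nuf2 at 0.057, Nek2 at 0.040 and Aurkb at 0.085 with median centring. Cenpf in the exon 2 line was 0.023 with the Hba-x covariate. With 1 library left out, Pttg1 in the exon 2-3 line ran from -0.47 to 0.021. For the exon 2 effect, Cenpf ran from -0.10 to 0.050, Kif14 from -0.098 to 0.055, Aspm from -0.087 to 0.073, Hmmr from -0.086 to 0.047, Spag5 from -0.031 to 0.062 and Top2a from -0.041 to 0.066. Spag5 in the controls ran from -0.072 to 0.010. The causes were not tested.

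Same-numbered libraries correlated in their deviations at -0.029 to 0.21 in the exon 2-3 line and at 0.064 to 0.20 in the exon 2 line, where 3 of 4 controls correlated best with their own number (1 of 4 in the exon 2-3 line). Not every pair exceeded 0.1, so the numbers were taken as names only. With the replicate block 149 genes were called for the exon 2-3 line, 2 for the exon 2 line, 68 for the interaction and 1400 between controls, and 7, 0, 2 and 5 members. The block also ended the exon 2-3 call of Pold2 and the interaction calls of Spdl1 and Fbxo5 (limma adjusted p = 0.0582, 0.0601 and 0.0753). Likeness to the members' mean, recomputed under alternatives chosen after seeing the data, moved by over 0.05 only for Sdhc (r = 0.776 with quantile normalisation, 0.878 as reported). TPM keeps no depth, so a small difference cannot be weighed against counting error.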
